A study of Homo sapiens with 16 samples.

Results

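Binding of the hypoxia-inducible factors in the stretch of chromosome 14 between HIF1A and SNAPC1 was examined in the peak lists of 16 ChIP-seq libraries. The window ran from 50 kb upstream of the SNAPC1 start site to 50 kb downstream of the HIF1A end, which is chr14:62179138-62264977 on GRCh37 (85840 bp). It had been selected on the score of a peak already seen there in these same lists, so the presence and the height of that peak are descriptions and carry no test. Of 23398 peaks in all lists, 22 had their centre in the window, and they merged into 2 of the 11685 merged sites of the series. One site, called the shared site below, held a peak of every one of the 16 libraries. The other, called the HIF-2α site, held a peak of 6 of the 8 HIF-2α libraries and of 0 of the 8 HIF-1α libraries. Its name states only which antibody gave the peaks.

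In ChIP-seq, chromatin fragments bound by a chosen protein are pulled down and sequenced, and a peak is a stretch where their reads accumulate. Chromatin was precipitated with a rabbit polyclonal antibody against HIF-1α (PM14) or HIF-2α (PM9) in 4 established human cancer cell lines, namely A549 (lung), HCT116 (colorectal), PC3 (prostate) and T47D (breast). All libraries came from cells kept in 0.5% oxygen for 16 hours, and no library of cells in ambient oxygen was used here, so the groups differ in cell line and antibody but not in oxygen. There were 8 groups, 1 per cell line and antibody, of 2 replicate libraries each, numbered 2 and 3 in A549 and HCT116 and 1 and 2 in PC3 and T47D. Each list gives, for every peak, the score of the peak caller, which has no stated unit, and its lowest value was 50 to 50.15 in every list. The lists held 275 to 4505 peaks and no read totals, so sequencing depth is unknown.

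HIF-1α and HIF-2α are the oxygen-regulated subunits of HIF-1 and HIF-2. They are degraded in well-oxygenated cells, accumulate in hypoxia, and bind DNA as a pair with HIF-1β at hypoxia response elements, whose core is RCGTG (R being A or G). HIF1A encodes HIF-1α itself. SNAPC1 encodes a subunit of SNAPc, the complex that binds the promoters of small nuclear RNA genes and is needed to transcribe them.

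The printed sequences show what lay under the middle of each site, since the sites differed in the motifs they contain. Both are the 300 bp around the median peak centre, on the plus strand of GRCh37, written 5′ to 3′. The first is chr14:62217783-62218082 of the shared site, where capitals mark RCGTG on either strand (CACGC being GCGTG read on the minus strand). The second is chr14:62221987-62222286 of the HIF-2α site, a stretch that holds no RCGTG and where capitals mark CACATG, a run of letters that was picked after the sequence had been seen.
shared site: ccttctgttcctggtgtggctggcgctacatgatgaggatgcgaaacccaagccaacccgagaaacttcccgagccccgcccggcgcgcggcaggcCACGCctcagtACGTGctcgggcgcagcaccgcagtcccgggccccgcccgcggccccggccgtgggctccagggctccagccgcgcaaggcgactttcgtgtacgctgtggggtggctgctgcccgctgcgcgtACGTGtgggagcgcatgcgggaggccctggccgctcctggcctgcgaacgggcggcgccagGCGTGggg
HIF-2α site: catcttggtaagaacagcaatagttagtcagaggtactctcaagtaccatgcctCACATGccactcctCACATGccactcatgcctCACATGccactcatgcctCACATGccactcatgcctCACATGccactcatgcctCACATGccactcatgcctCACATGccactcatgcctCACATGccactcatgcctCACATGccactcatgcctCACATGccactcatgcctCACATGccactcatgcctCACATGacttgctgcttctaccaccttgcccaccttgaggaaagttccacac

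The shared site spanned chr14:62217294-62218864 (1571 bp), and all 16 peaks had 645 bp in common, from 62217611 to 62218255. It began 2316 bp past the end of HIF1A (ENSG00000100644, 62162231 to 62214977, plus strand) and ended 10273 bp before the start of SNAPC1 (ENSG00000023608, 62229138 to 62263146, plus strand). With respect to protein-coding genes it was therefore intergenic, in the gap of 14160 bp that separates HIF1A from SNAPC1. With respect to long non-coding RNAs it was not. HIF1A-AS3 (ENSG00000258667, 62174016 to 62217881), an antisense RNA transcribed from the minus strand back across HIF1A, had all 11 of its annotated transcripts start in the stretch common to the 16 peaks, between 62217638 and 62217881. Their first exons all ended at the same base, 62217603, just outside that stretch. The nearest protein-coding start site was that of SNAPC1, 11059 bp from the centre of the site, and no peak centre came closer than 53579 bp to a start site of HIF1A.

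The HIF-2α site spanned chr14:62221324-62224090 (2767 bp) with 754 bp common to its 6 peaks, from 62221761 to 62222514. It lay on the SNAPC1 side of the shared site, 2459 bp away from edge to edge, and ended 5047 bp before the SNAPC1 start. Its full width was set by 1 peak, that of PC3 HIF-2α replicate 2. Without that peak the site was 1336 bp wide, from 62221489 to 62222824, and the other 5 peak centres lay between 6960 and 7031 bp upstream of SNAPC1. Both sites fell inside an intron of a long non-coding RNA known only by its identifier, ENSG00000258964 (62200856 to 62242978, plus strand, 1 annotated transcript), and no exon of it overlapped either site.

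**Figure D1:**
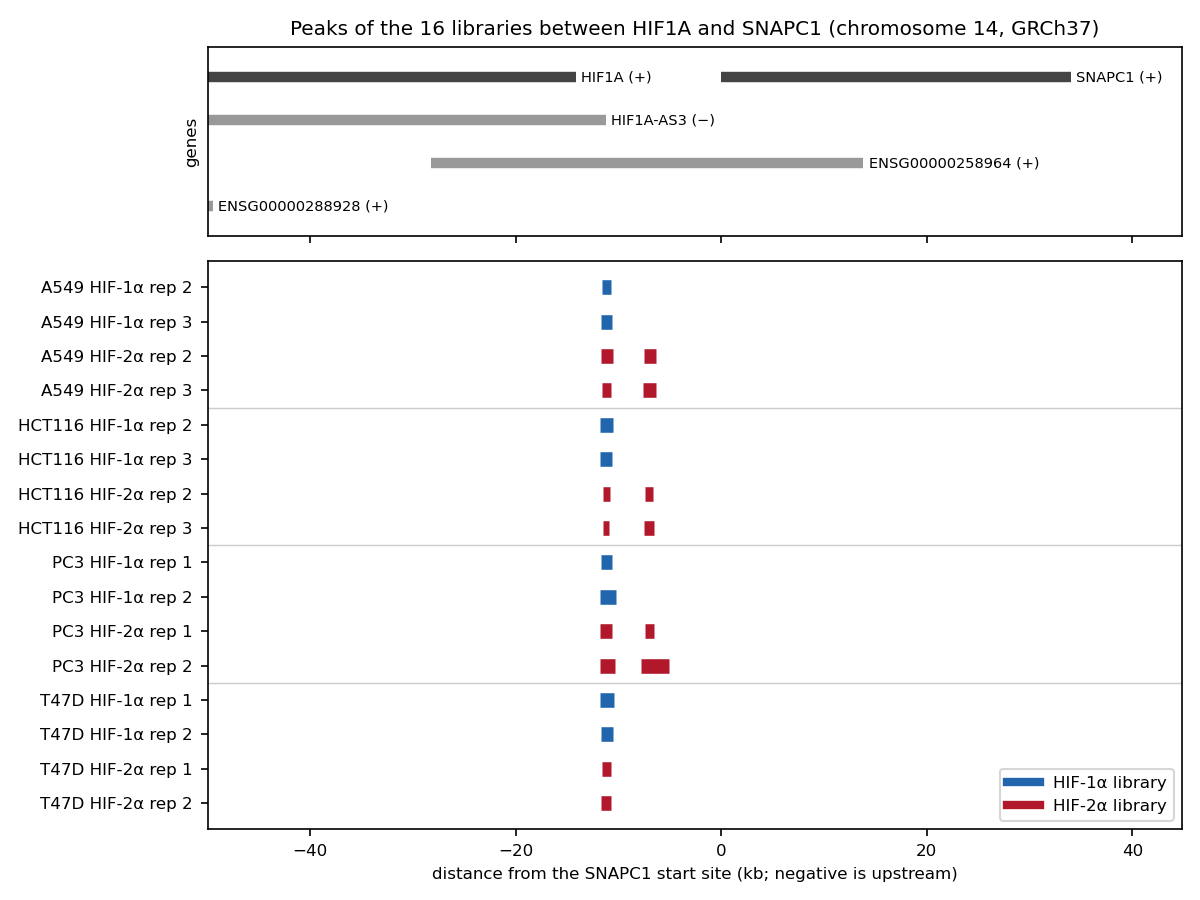
Position of every peak in the window, by library. The horizontal axis is the distance from the SNAPC1 start site in kb (negative upstream); the upper panel shows the annotated genes with their strand, and each bar below is 1 peak of the library named at left, blue for HIF-1α and red for HIF-2α. All 16 libraries have a peak about 11 kb upstream of SNAPC1, 6 HIF-2α libraries have a further peak nearer to SNAPC1, and the rest of the window is empty.

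The window held no other peak. The 22 centres lay between 62217919 and 62222707, the outermost of them 38781 bp and 42270 bp inside the edges of the window. The nearest peak below the window was centred 148981 bp from its edge, with a score of 71.7 at the 40.8th percentile of PC3 HIF-1α replicate 2. The nearest above was 894073 bp away, with a score of 86.4 at the 49.3rd percentile of A549 HIF-2α replicate 3. The promoters of SNAPC1 and HIF1A themselves thus had no peak in any of the 16 lists.

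Within a list, the score percentile of a peak is the percentage of the list's peaks that scored lower. A peak takes the middle of its own step on this scale, and peaks of equal score the middle of the steps they share. Lists of different length can thus be set side by side. At the shared site the percentile averaged 99.2 over the 16 libraries (SD 0.9), from 96.5 to 99.9. Its peak stood 2nd to 15th in its list by score (median 6), never first, and among the first 10 in 12 of the 16 libraries. A peak in all 16 libraries was rare in these lists, at 24 of 11685 merged sites (0.205%), whereas 6957 sites had a peak in a single library.

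In A549, the shared site scored 479 and 1039 in the HIF-1α replicates, and 1482 and 1441 in the HIF-2α replicates. As percentiles, HIF-1α stood at 96.5 and 97.7 and HIF-2α at 99.2 and 99.4, the HIF-1α values being the lowest among the 16 libraries. The mean score was 759 ± 396 (SD, n = 2) with HIF-1α and 1462 ± 29.4 with HIF-2α, and the mean percentiles were 97.1 ± 0.869 and 99.3 ± 0.153. In this cell line HIF-2α was the higher on both scales, by 1.92 times in mean score, and the replicates of the isoforms did not overlap.

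In HCT116 the order of the scores was the other way round. HIF-1α replicates scored 2690 and 1971 (mean 2331 ± 508), and HIF-2α replicates 1078 and 473 (775 ± 427), a ratio of means of 3.01. The percentiles, 99.8 and 99.7 for HIF-1α against 99.8 and 99.2 for HIF-2α, overlapped, with means of 99.8 ± 0.033 and 99.5 ± 0.449.

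In PC3, scores were 1690 and 3093 for HIF-1α (2391 ± 992) and 402 and 878 for HIF-2α (640 ± 336), so that HIF-1α was higher by 3.73 times in mean score. Percentiles were 99.9 and 99.8 (99.9 ± 0.044) against 99.5 and 99.6 (99.5 ± 0.0842), and neither scale showed an overlap between isoforms. By place from the top of the list the isoforms were equal, at 2nd and 6th place with each. PC3 also held the highest and the lowest score of the shared site, 3093 and 402, at nearly the same percentile. The list of the first had 3413 peaks and that of the second 275.

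In T47D, HIF-1α replicates scored 1800 and 2161 (1980 ± 256) and HIF-2α replicates 818 and 993 (906 ± 124), a ratio of 2.19. The percentiles overlapped, at 99.4 and 99.4 for HIF-1α (99.4 ± 0.0294) and 99.2 and 99.6 for HIF-2α (99.4 ± 0.335).

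**Figure D2:**
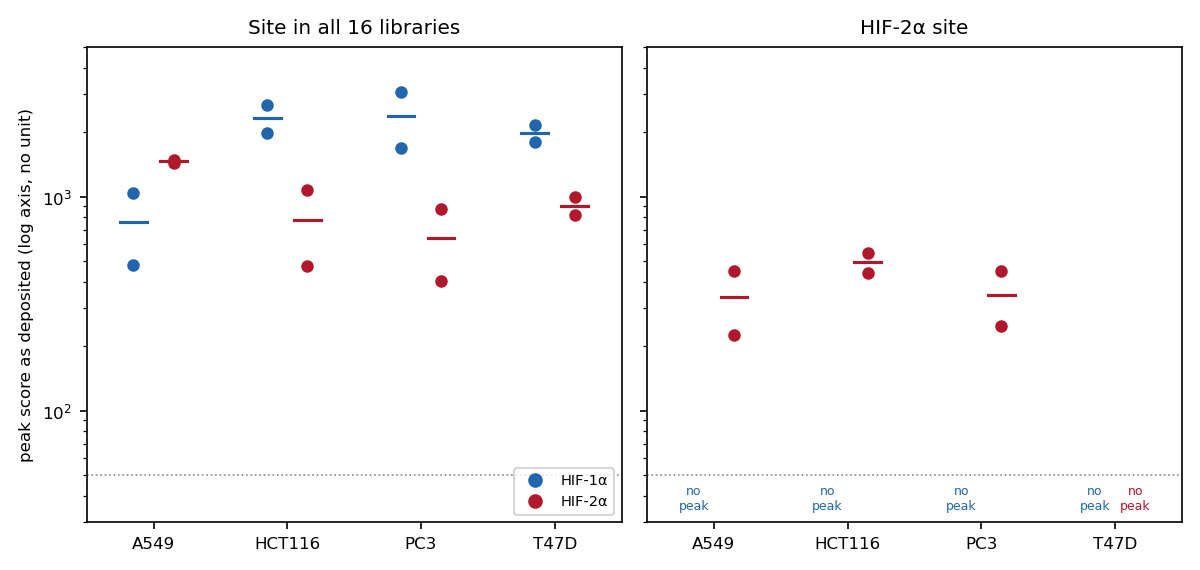
Peak scores by cell line and isoform at the shared site (left) and at the HIF-2α site (right). Each point is 1 library, horizontal marks are the means of the 2 replicates, the vertical axis is the deposited score on a log scale, and the dotted line at 50 is the lowest score of any list. At the shared site HIF-1α is the higher in HCT116, PC3 and T47D and HIF-2α in A549, and at the HIF-2α site points are present for HIF-2α alone, in A549, HCT116 and PC3.

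Which isoform scored higher at the shared site moved with the length of the lists. HIF-1α lists were the longer in HCT116 (4465 to 4505 peaks against 901 to 1264), PC3 (1517 to 3413 against 275 to 1290) and T47D (711 to 761 against 423 to 424), and HIF-2α lists in A549 (1056 to 1382 against 382 to 629). The median of the other 23 sites found in all libraries had the same sign as the shared site in each line. On the log2 scale of the score, the difference HIF-1α minus HIF-2α was 1.69 at the shared site and 2.22 in the median of the others in HCT116. It was 1.94 and 2.42 in PC3, and 1.13 and 1.42 in T47D. In A549 it was -1.05 at the shared site and -0.25 in the median of the others, of which 13 scored higher for HIF-2α and 10 for HIF-1α. A preference of the shared site for an isoform and a general difference between the lists of a cell line cannot be told apart by score, and a ratio of scores is not a fold of binding.

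A percentile sets lists on 1 scale but still depends on how many weak peaks a list includes. The mean percentile of the shared site was 99 over the 8 HIF-1α libraries and 99.4 over the 8 HIF-2α libraries, and HIF-1α was the higher in 2 of the 4 cell lines. In those 2 lines, HCT116 and PC3, HIF-1α did not stand higher by place from the top. Its places were 10th and 12th against 3rd and 8th in HCT116, and equal in PC3. The percentile difference of -0.395 is given without a test, because the window was selected on this score and the values lie close to the upper end of the scale. With the 275 best peaks of each list it was -1.14, and without A549 it was 0.205, with HIF-1α the higher.

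The window was selected on score, and not directly on the width of a peak or its exact position. Whether width and position depend on the score was not tested. The isoforms were compared by exact permutation, two-sided, relabelling the libraries of a cell line among themselves. There were 1296 relabellings, and the smallest attainable exact permutation p was 0.00154 for a measure without equal values. Adjustment was by the Benjamini-Hochberg method over 4 tests, that of the percentile included. Peak centres lay 11038 to 11219 bp upstream of SNAPC1, a range of 181 bp over all 16 libraries, and their widths were 656 to 1528 bp. Relative to the SNAPC1 start, HIF-1α centres averaged -11141 bp and HIF-2α centres -11164 bp, 22.6 bp apart against an SD between replicates of 56.9 bp (exact permutation p = 0.429, Benjamini-Hochberg adjusted p = 0.429). Width was taken relative to the median of each list, because lists differed in their general peak width. On the log2 scale it was 0.04 for HIF-1α and 0.24 for HIF-2α, a difference of -0.20 against an SD between replicates of 0.24 (exact permutation p = 0.168, Benjamini-Hochberg adjusted p = 0.336). Neither difference passed the threshold of 0.05. The position difference ranged from 2.94 to 42.3 bp when single libraries were left out, the extremes being without PC3 HIF-2α replicate 1 and replicate 2. The width difference depended on its scale, being 0.34 with HIF-1α the wider as log2 width in bp (exact permutation p = 0.0386, unadjusted), and -0.27 without A549 HIF-2α replicate 3 (exact permutation p = 0.0494, unadjusted).

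The central 200 bp of the shared site contained 3 copies of RCGTG on either strand, 2 of them in the form ACGTG. Of 11664 merged sites with sequence, 52.3% had at least 1 copy in a window of that size and 9.19% had 3 or more. Among the 24 sites found in all libraries these shares were 91.7% and 25%. None of these shares was matched for GC or CpG content. The stretch common to all peaks held 5 copies and the whole site 7. The GCGTG on the minus strand at 62217879-62217883, seen as the first capitals of the printed sequence, overlapped the outermost start site of HIF1A-AS3 at 62217881, and the ACGTG at 62217890 lay a few bases before it. The second ACGTG began at 62218014, still upstream of HIF1A-AS3 on its own strand. These central 200 bp were rich in G and C (77%) and contained 27 CpG dinucleotides. In the 300-base promoter of HIF1A-AS3 as given by RefSeq on GRCh38.p14, 3 copies of RCGTG and 2 of ACGTG were found, and 48.4% and 21.4% of 35116 RefSeq promoters held at least 1. A match shows only that the letters are present.

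The SNAPC1 promoter, where no list had a peak, was not poor in these letters. The 250 bp before its start (chr14:62228888-62229137) held 4 copies of RCGTG, all as GCGTG, and 22 CpG dinucleotides. Among the corresponding 250 bases of RefSeq promoters, 3.22% held 4 or more copies and 43.2% at least 1. The 250 bp before the HIF1A start (chr14:62161981-62162230) held 1 copy, also as GCGTG, and 29 CpG dinucleotides. The shared site differed from both in holding ACGTG.

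At the HIF-2α site, the A549 replicates scored 225 and 451, at percentiles of 79.6 and 94.6 (87.1 ± 10.7, n = 2). The HCT116 replicates scored 546 and 440, at 98.9 and 98.8 (98.9 ± 0.0688). The PC3 replicates scored 249 and 448, at 97.6 and 98.3 (97.9 ± 0.438). All 6 HIF-2α libraries of these 3 lines therefore carried the peak, high in the list in HCT116 and PC3 and lower, with a wide spread, in A549.

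Neither T47D HIF-2α library listed a peak there, nor did any HIF-1α library of the 4 lines. The T47D HIF-2α lists held 423 and 424 peaks. The site stood in 7th place in the shortest list, that of PC3 HIF-2α replicate 1 (275 peaks), and was not in the longest lists, those of HCT116 HIF-1α (4465 and 4505 peaks). The part of list length and depth in its absence was not tested. A missing peak means a score under the caller's threshold, and weaker binding in those libraries was not detectable from lists of peaks.

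The score of the HIF-2α site as a percentage of that of the shared site in the same library was 15.2% and 31.3% in A549, 50.7% and 93% in HCT116, and 61.8% and 51% in PC3. The HIF-2α site was thus the lower of the pair in all 6 libraries. The ratio was lowest in A549, where the shared site had its highest HIF-2α scores.

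The number of sites of the window with a peak was 1 in every HIF-1α library and in the T47D HIF-2α libraries, and 2 in every other HIF-2α library. On average HIF-1α libraries had 1 and HIF-2α libraries 1.75, and replicates of a group never differed. The difference of -0.75 was in the same direction in 3 of the 4 lines and absent in T47D (two-sided exact permutation p = 0.00926, Benjamini-Hochberg adjusted p = 0.037). Without A549, HCT116 or PC3 it was -0.667 with an exact permutation p of 0.0556 in each case. Because every T47D library had 1 site, 0.00926 was the smallest exact permutation p that this measure could reach with all lines. With A549, HCT116 or PC3 left out the smallest was 0.0556, so the omissions could not show whether the call rested on any 1 line. All of the difference came from the HIF-2α site, which entered the count through peaks of HIF-2α libraries alone. The test of the number of sites was also chosen with earlier results of these data known. Its p restates the pattern and is not independent evidence of it.

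A pattern of at least 6 HIF-2α libraries and 0 HIF-1α libraries was rare, at 4 of 11685 merged sites (0.0342%), and the reverse was found at 114 sites. All 4 had their peaks in the same 6 libraries, without T47D. The HIF-2α site upstream of SNAPC1 had the highest mean percentile of the 4, at 94.6. The others were nearest to GADD45B (92), KRBOX4 (64.5) and CBX7 (57.8). It was also the only 1 of the 4 within 10 kb of a site found in all libraries. The window had been selected on the shared site, so this closeness follows from the choice of window and is a description. The count of 4 sites depended on how peaks were handled. With a reciprocal overlap of 50% there were 3 such sites and with the 275 best peaks of each list 5, and the HIF-2α site was among neither. In the first case the wide PC3 peak stood apart as a site of its own, and in the second the peak of A549 replicate 2, in 283rd place, was dropped.

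The sequence of the HIF-2α site differed from that of the shared site in motif, CpG and GC content. The stretch common to its peaks contained 0 copies of RCGTG and 0 CpG dinucleotides, against 5 and 53 at the shared site, and its GC content was 45% against 62.6%. RCGTG contains a CpG, so its absence follows from the absence of CpG and is not a separate difference. The 4 copies of GCGTG in the whole site lay outside that stretch, 3 of them under the far end of the wide PC3 peak alone. In place of the HIF motif, the middle was occupied by a tandem repeat of 189 bp (62222052 to 62222240), made of 10.5 copies of an 18-bp unit, cctcacatgccactcatg. Of the 12 copies of CACATG in capitals in the printed sequence, 11 fell in the repeat, and 8.86% of merged sites held at least 1 in their central 200 bp. A tandem tract of at least 100 bp in the central 500 bp was found at 61 of 11664 merged sites (0.523%) and at 0 of the 24 sites present in all libraries. None of the 4 sites with the HIF-2α pattern had RCGTG, or the AP-1 motif TGANTCA, in its central 200 bp, and the other 3 had no such tract. Of all merged sites 52.3% held RCGTG there and 9.68% TGANTCA, so the lack of TGANTCA does not set these 4 apart. Reads with a mapping quality under 15 had been removed by the authors, the lists hold no reads, and the part of the repeat in the peak was not tested.

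**Figure D3:**
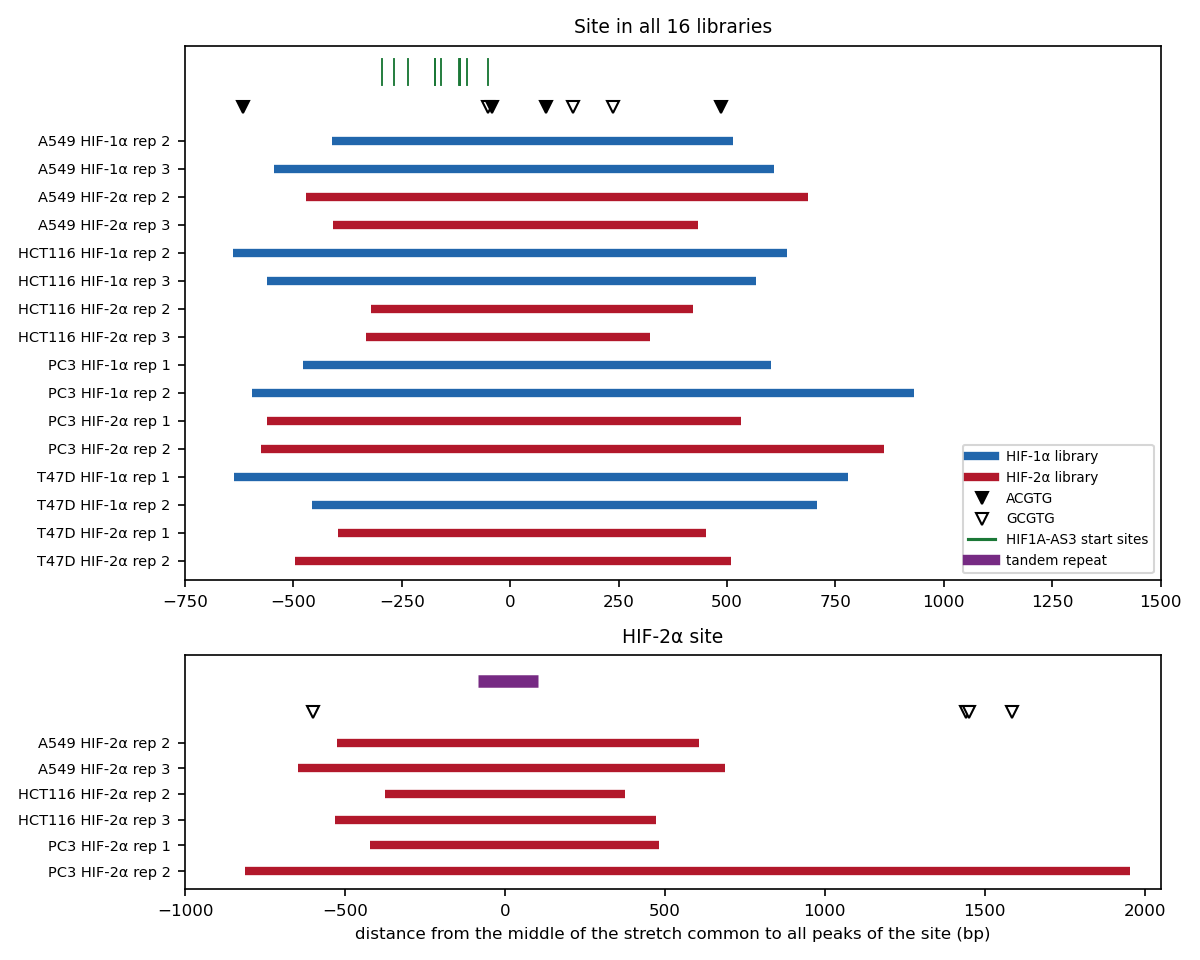
Peaks of the shared site (upper panel) and of the HIF-2α site (lower panel) on an axis in bp centred on the stretch common to all peaks of the site. Bars are the peaks of single libraries (blue HIF-1α, red HIF-2α), triangles mark ACGTG (filled) and GCGTG (open) on either strand, green lines the start sites of HIF1A-AS3 transcripts, and the purple bar the tandem repeat. The 11 transcript starts and 5 of the 7 triangles lie in the middle of the shared site, whereas the repeat lies in the middle of the HIF-2α site and its 4 triangles are outside the common stretch.

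Compared with the other 23 sites found in all libraries, the shared site had the highest mean percentile and the highest lowest percentile. The others averaged 74.7 to 98.5, with a median of 93.3. Next in order were sites nearest to ALDOA (98.5), which encodes the glycolytic enzyme aldolase A, BHLHE40 (97.7), a transcriptional repressor, GPI (97.2), which encodes glucose-6-phosphate isomerase, ZNF395 (96.5) and a further site near BHLHE40 (96.2). In 1 library at least, each of the 23 fell below the 96.5 that was the lowest value of the shared site. This order follows from the score by which the window was selected. The sites whose percentiles varied most like those of the shared site over the 16 libraries were nearest to MRPL45 (Pearson r = 0.816), STC2 (0.799), NPEPPS (0.75), ZNF395 (0.51) and BHLHE40 (0.479). These values are descriptions, since all sites take their percentiles from the same lists. The shared site had its lowest percentiles in the A549 HIF-1α libraries, and the weight of these libraries in each r was not tested.

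**Figure D4:**
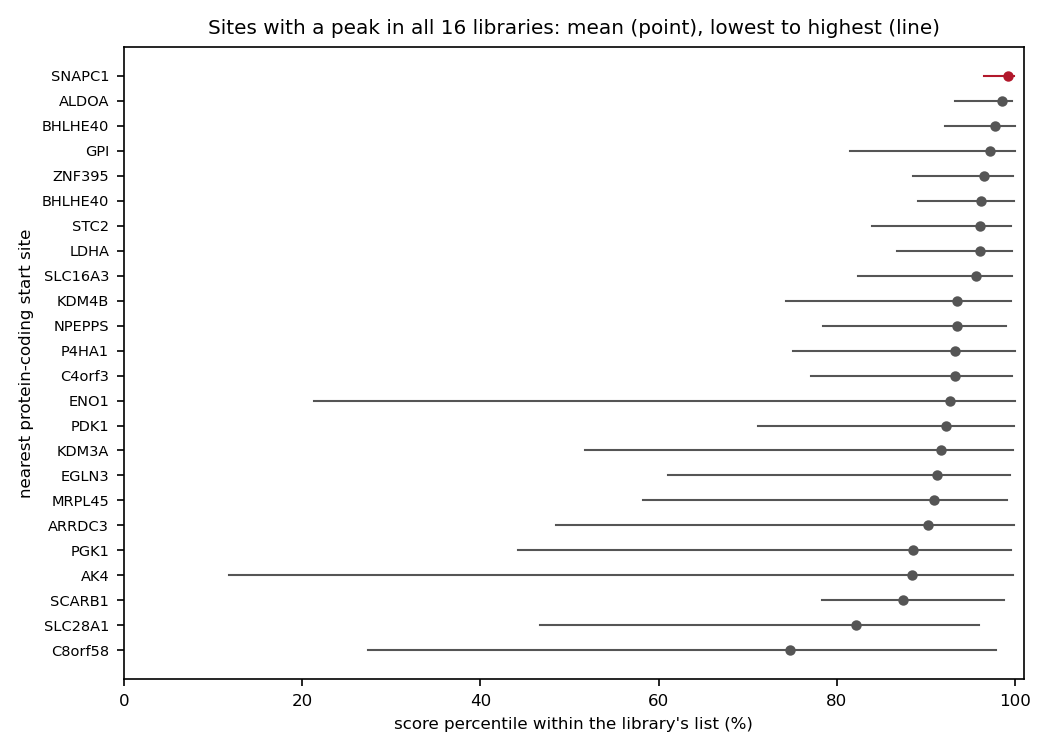
Score percentile of the 24 sites with a peak in every library, each named by the nearest protein-coding start site. Points are means over the 16 libraries, lines run from the lowest to the highest library, and the horizontal axis is the percentile within the library's own list. The shared site upstream of SNAPC1 (red) has the highest mean, 99.2, and the shortest line, from 96.5 to 99.9.

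Other genes of the HIF system and of small nuclear RNA transcription were looked up by peaks centred within 10 kb of a protein-coding start site. Of all 19460 protein-coding genes, 37.7% had such a peak in at least 1 library and 2.68% had one in HIF-2α libraries and in no HIF-1α library. Of 11 genes of the HIF system, 3 had such a peak. EGLN1, a prolyl hydroxylase that marks HIF-α for degradation, had one in 15 libraries (8 HIF-1α and 7 HIF-2α), with a best percentile of 99.5. CITED2, which competes with HIF-α for its coactivators, had one in 11 libraries (7 and 4, best 90.4). HIF1AN, the asparagine hydroxylase that inhibits HIF-α, had one in 3 HIF-1α libraries (best 78.9). HIF1A, EPAS1 (which encodes HIF-2α), HIF3A, ARNT (which encodes HIF-1β), ARNT2, EGLN2, EGLN3 and VHL had none within that distance. For EGLN3, a site with a peak in all 16 libraries lay just beyond it, 12271 bp from the start (mean percentile 91.2).

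Of 9 genes of SNAPc and small nuclear RNA transcription, 5 had a peak by this measure, against the same 37.7% of all genes. SNAPC1 was counted through the HIF-2α site alone, in 6 libraries, because the shared site lies just beyond 10 kb. SNAPC3, another subunit of the complex, had a peak in 8 HIF-1α and 2 HIF-2α libraries (best percentile 97.7), as did POU2F1, the octamer-binding activator of these genes (97.1). SNAPC2 had one in 4 HIF-1α libraries (76.8) and TBP, the TATA-binding protein, in 1 HIF-1α library (56.6). SNAPC4, SNAPC5, BRF2 and BDP1 had none. SNAPC1 was the only gene of these 9 with peaks in HIF-2α libraries and none in HIF-1α libraries within that distance, a pattern shared with 2.68% of all genes.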

How the data were processed

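ChIP-seq peak lists of HIF-1α or HIF-2α from A549, HCT116, PC3 and T47D cells were analysed, 1 list per library, with groups taken from the sample labels. The labels do not say whether replicates were separate cultures. The p-values therefore refer to relabelling of these libraries alone, and the spread between replicates may be technical. RNA-seq, HIF-1β libraries and further cell lines of the study were not used here.

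The authors trimmed reads (Trim Galore 0.3.3), aligned them to GRCh37 (BWA 0.7.5a-r405), removed reads with a mapping quality under 15 (SAMtools 0.1.19), blacklisted regions (bedtools 2.17.0) and duplicates (Picard 2.0.1), and called peaks per library with MACS in control mode. The MACS version, control library and scale of the score are not given in the sources used here. The score deposited by the authors was used as it stands or as a percentile within its list. The study also used a further peak caller (T-PIC), a filter on the count under the peak and a required overlap between replicates. The last had not been applied to these lists, since 6957 merged sites had a peak in a single library. Peak names were numbered without gaps, and whether the other filters had been applied was not tested. For its canonical HIF-1 and HIF-2 sites the paper further required peaks with HIF-1β. Whether either site of the window meets that definition was not tested.

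Peaks sharing at least 1 bp were merged (Python 3.11.15, numpy 2.4.6). Genes came from GENCODE release 44 on GRCh37, and promoters, matched by symbol, from RefSeq on GRCh38.p14. RCGTG, the AP-1 motif TGANTCA and the run CACATG were searched on both strands around the median peak centre of each site, leaving out 29 peaks off chromosomes 1 to 22, X and Y. HIF-1α and HIF-2α libraries were compared by exact permutation, two-sided, within cell lines, and p-values were adjusted by the Benjamini-Hochberg method over 4 tests at a threshold of 0.05. The functions were tested on simulated data.

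Named were both sites, the genes of the window, the 5 sites most like the shared site and the 5 next in mean percentile. The window, lists and tests were chosen with earlier results of these data known. The counts of sites with the HIF-2α pattern and of all genes with a peak, the tandem repeat and CACATG were added after the data were seen. Alternatives comprised a score of at least 74.5 (the median of all peaks), the 275 best peaks of each list, a reciprocal overlap of 50%, other scales and flanks, pairing by replicate number, and omission of single libraries or cell lines.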

Additional observations from a re-analysis of the deposited data

Results flagged for a closer look

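The log2 difference in score at the shared site, HIF-1α minus HIF-2α, was -1.05 in A549 and 1.69 in HCT116, 1.94 in PC3 and 1.13 in T47D. It was picked out because both HIF-2α libraries of A549 scored above both HIF-1α libraries, whereas the libraries of the other 3 lines were ordered the opposite way without overlap. The difference between A549 and the other lines was not tested. The isoform with the longer lists was the higher in each of the 4 lines.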

How the results depend on the processing

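The shared site had a peak in all 16 libraries with the stricter score, equal numbers of peaks and reciprocal overlap. The window held 2 merged sites, 3 with reciprocal overlap, and 1 with flanks of 10 kb, a window that misses the shared site. The mean percentile of the shared site was 98.2 with the stricter score, 97.6 with equal numbers and 99.2 to 99.4 without single libraries, and its median position in the lists was 6. The isoform difference in percentile (-0.395) was -0.549 to -0.242 without single libraries and -1.14 with equal numbers. It reversed to 0.205 without A549, to 0.928 as log2 score and to 0.806 as log2 score over the list median. The difference in relative width (-0.20) was 0.34 as log2 width in bp (exact permutation p = 0.0386) and -0.27 to -0.13 when single libraries were left out. It passed without A549 HIF-2α replicate 3 (-0.27, exact permutation p = 0.0494). The difference in peak position (22.6 bp) kept its sign in all 26 alternatives and passed the threshold in none, and its size was 2.94 to 42.3 bp without single libraries (exact permutation p = 0.201 to 0.915). The difference in number of sites was -0.75 without any single library and -0.667 without A549, HCT116 or PC3 (exact permutation p = 0.0556 each). That p was the smallest this measure could reach with such a line left out.

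Same-numbered libraries did not deviate together in all lines (r over 23 sites 0.0215 in A549, -0.258 in HCT116, 0.425 in PC3, 0.374 in T47D). With a replicate block the exact permutation p was 0.312 for position and 0.195 for width (smallest attainable exact permutation p = 0.00781). For number of sites the exact permutation p was 0.0312 (Benjamini-Hochberg adjusted exact permutation p = 0.125). Because every T47D library had 1 site, 0.0312 was also the smallest exact permutation p that the block allowed for number of sites. With the block 0 of 4 rather than 1 of 4 adjusted calls remained, and the same counts were found with the numbers crossed in HCT116. At that smallest exact permutation p the call could not pass after adjustment, so the block could not show whether it depended on the pairing. The shared site held 5 copies of RCGTG in the central 400 bp and 7 in all. Sites found in all libraries numbered 15 with the stricter score and 15 with equal numbers, against 24, and those with the HIF-2α pattern numbered 2 with the stricter score, against 4. Apart from the causes named, the cause of these shifts was not tested. The unknown depth limits what an absent peak can mean.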
